A study of Homo sapiens with 4 samples.

Results

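Cadherin-based junctions were compared between CD133+ and CD133- cells of Huh7, an established human hepatocellular carcinoma line. The 10 genes considered encode the core of the adherens junction and of the desmosome, and their members were the probe sets to which the platform annotation gives exactly 1 gene symbol from this list. By this rule 9 of the 10 genes had members, with 22 probe sets among the 54675 of the array, and these 9 are among 19775 genes named on it. CTNND1, the gene of p120-catenin, had 0 probe sets of its own, because its 4 probe sets are listed together with the read-through transcript TMX2-CTNND1, and it is given no value here. The CD133+ group was cells given in the sample names as positive for CD133. This membrane protein, encoded by PROM1, is widely used to enrich liver cancer cells with stem-like properties. The CD133- group was cells of the same line given as negative for CD133. The line is the only genetic background, both groups are sorted fractions of it, and no treatment is named in the labels. The authors deposited each population once as RMA values (log2) and once as MAS5 signals (linear). These were taken as 1 array per population read by both algorithms, which is inferred from labels that differ only in the algorithm and is not stated in them. RMA and MAS5 values were therefore not used as replicates, so no value below has a replicate error and no difference has a test.

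In adherens junctions, classical cadherins of neighbouring cells bind each other outside the cell, and their tails bind beta-catenin or plakoglobin and p120-catenin, which through alpha-catenin reach the actin cytoskeleton. In desmosomes, desmogleins and desmocollins do the same work, and their tails are joined by plakoglobin, plakophilins and desmoplakin to keratin filaments. Hepatocytes carry both E-cadherin and N-cadherin, and loss of E-cadherin is a hallmark of epithelial-mesenchymal transition in carcinoma cells. The bulk signal of a sorted population does not separate a change in every cell from a change in the share of cells that express a gene.

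Most of these genes were slightly higher in CD133+ cells. The plaque gene JUP was 1.53-fold higher, the E-cadherin gene CDH1 1.34-fold and the plakophilin gene PKP2 1.27-fold, whereas the catenin genes CTNNA1 and CTNNB1 differed by -0.01 and 0.09 (log2). All 9 genes lay above the brightness floor, set at an RMA value of 4.86 in the brighter population (the array-wide median of this brighter value). Of the 9, 8 were higher in CD133+ cells and 1 lower, where 45.6% of all 12899 genes above the floor were higher and 51.1% lower. The median difference over the 9 genes was 0.25, against -0.01 over all genes above the floor. At least 1.5-fold, 1 gene was higher and 0 lower, where 3.67% of genes above the floor were that much higher and 1.01% that much lower. None of the 9 reached 2-fold, which 1.65% of genes above the floor did in the higher and 0.116% in the lower direction. All of these are small differences without a replicate check. The only spread the arrays offer is that between probe sets of the same gene, with an SD of 0.17 (log2) for the difference of 1 probe set, from 16955 pairs above the floor. 6 of the 9 genes differed by more than this SD and 3 by less, where 38.1% of genes above the floor differed by more in either direction. The SD leaves out variation between sorts, cultures and hybridisations.

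The sort was visible in its own marker. By RMA, PROM1 read 10.49 in CD133+ cells and 5.33 in CD133- cells. The transcriptomes were otherwise close, and 93.8% of genes above the floor differed by less than 0.5 (log2). Hepatocyte lineage genes were bright on both arrays, as AFP shows with 14.01 in CD133+ and 13.98 in CD133- cells. Of the 5 measured, 2 were higher and 3 lower in CD133+ cells by RMA, with differences from -0.095 to 0.55 (TTR). Of 4 measured blood markers 3 lay above the RMA floor (CD14, CD3E and HBB), and 0 were higher in CD133+ cells by RMA. The leukocyte gene PTPRC was below the floor with 2.32 in CD133+ and 2.43 in CD133- cells. Of 6 endothelial and stromal markers 3 lay above the floor, with differences of -0.25 (PDGFRB), 0.02 (VWF) and 0.23 (PECAM1). All PECAM1 probe sets above the floor were higher in CD133+ cells, by 0.09 to 0.27. DCN, COL3A1 and ACTA2 lay below the floor on both arrays. Passing the floor says that a probe set is bright, not that its transcript is present, and the part of other cells in the junction differences was not tested.

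**Figure D1:**
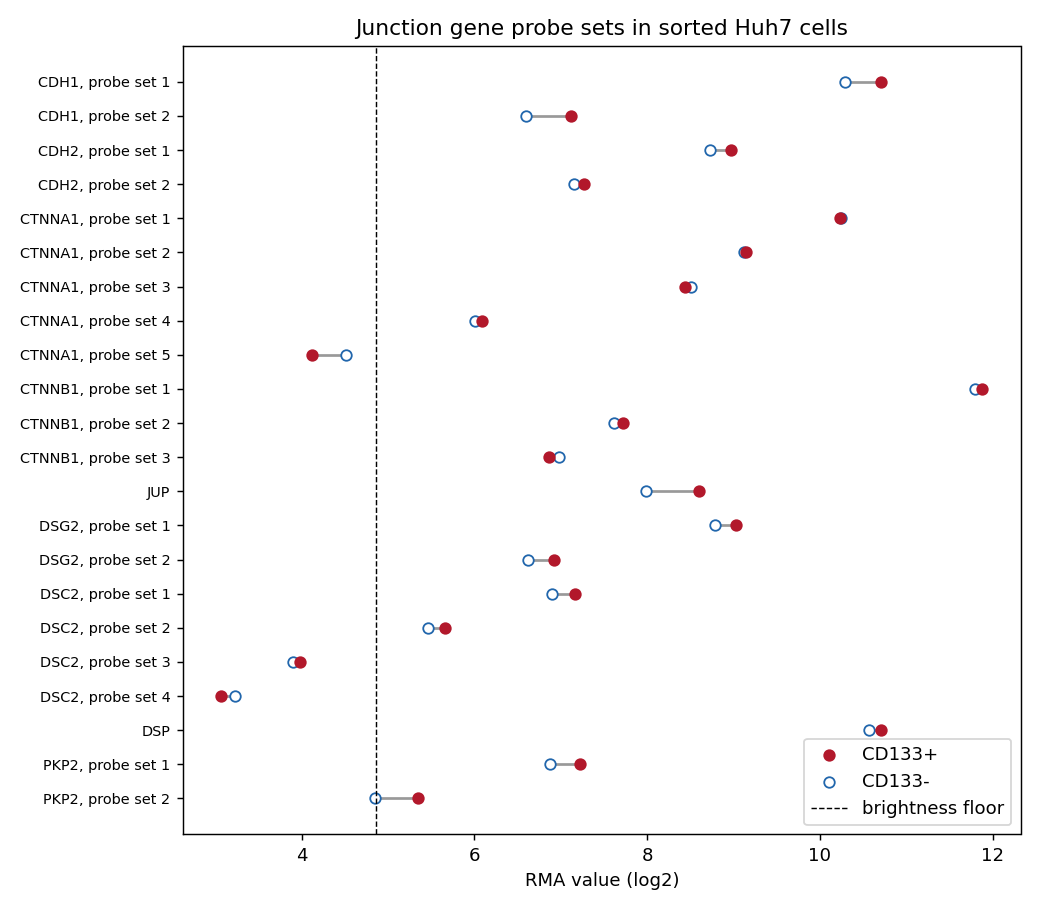
RMA values (log2) of the 22 probe sets of the junction genes in CD133+ (filled) and CD133- (open) cells, 1 array each, with the brightness floor of 4.86 as a dashed line. Probe sets differ in how well they hybridise, so only the gap within a row is comparable, and the widest gap above the floor is that of JUP (0.61).

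JUP encodes plakoglobin, the armadillo protein that binds both classical and desmosomal cadherins. Its RMA value was 8.60 in CD133+ cells and 7.99 in CD133- cells. Its MAS5 signal was 1626 in CD133+ cells and 957 in CD133- cells, a 1.70-fold difference. JUP thus had the largest RMA difference of the 9 genes (0.61), and 3.43% of genes above the floor had a larger one. By MAS5, 6.78% of genes above the MAS5 floor had a larger difference. This floor is a signal of 91.8, the array-wide median of the brighter MAS5 signal. It was read by only 1 probe set, whose name marks possible matches to several transcripts, so no second probe set could be compared.

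Promoter stretches of JUP, DSG2 and DSP, the starts with more than 1 match, are shown because the zinc-finger repressor ZEB1, described below, recognises the E-box letters CACCTG, read as CAGGTG on the other strand. The 250 bases before each gene start in RefSeq (GRCh38.p14) were searched for either spelling, which covers both strands and between which no overlap occurred. Of 7 member genes with an entry, 4 held a match at 1 or more of their starts (JUP, DSG2, DSP and DSC2), that is 4 of 13 starts, where 17.5% of 35116 starts of all genes held one. CDH1, PKP2 and CTNND1 had no entry. In the sequences below, 5′ to 3′ on the gene's strand, capitals mark the matches. The JUP stretch is chr17:41785977-41786226 (minus strand), before the downstream of its starts, with matches beginning 54 and 43 bases before the start. The DSG2 stretch is chr18:31497927-31498176 (plus strand) and the DSP stretch chr6:7541421-7541670 (plus strand). A match is a description of the letters and not a measured site, and it does not say which factor, if any, binds there.
JUP: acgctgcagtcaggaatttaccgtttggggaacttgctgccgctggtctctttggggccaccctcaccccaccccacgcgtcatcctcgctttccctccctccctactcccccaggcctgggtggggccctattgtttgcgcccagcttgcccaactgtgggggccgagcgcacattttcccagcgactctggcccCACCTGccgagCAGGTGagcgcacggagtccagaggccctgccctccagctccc
DSG2: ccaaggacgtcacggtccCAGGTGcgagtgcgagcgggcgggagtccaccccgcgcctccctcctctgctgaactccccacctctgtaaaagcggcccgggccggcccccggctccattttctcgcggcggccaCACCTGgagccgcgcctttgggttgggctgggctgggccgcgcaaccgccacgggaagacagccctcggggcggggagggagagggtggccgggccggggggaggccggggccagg
DSP: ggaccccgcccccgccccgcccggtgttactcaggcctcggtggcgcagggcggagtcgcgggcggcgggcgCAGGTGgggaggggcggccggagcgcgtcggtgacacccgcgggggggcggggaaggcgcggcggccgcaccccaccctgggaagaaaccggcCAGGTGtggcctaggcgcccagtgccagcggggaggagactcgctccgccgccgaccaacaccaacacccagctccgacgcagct
The upstream JUP start held 0 matches, as did the starts of CTNNB1, CTNNA1 and CDH2. RMA differences of the genes with a match ran from 0.14 (DSP) to 0.61 (JUP). Those of the genes without one ran from -0.01 (CTNNA1) to 0.24 (CDH2), so the ranges overlap. A link between matches and differences was not tested.

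The classical cadherins were both higher in CD133+ cells, and CDH1 more so than CDH2 by the values as measured. CDH1 encodes E-cadherin, the main cadherin of epithelia. On its brighter probe set it had RMA values of 10.71 in CD133+ and 10.29 in CD133- cells, a difference of 0.42. Its other probe set had 7.12 in CD133+ and 6.60 in CD133- cells, a difference of 0.52. Both CDH1 probe sets thus put CD133+ cells higher by 0.42 to 0.52, and 5.81% of genes above the floor had a difference above that of the brighter one. MAS5 gave CDH1 signals of 8934 in CD133+ and 6855 in CD133- cells, a 1.30-fold difference. By MAS5, 16.4% of genes above the MAS5 floor had a larger difference. CDH2 encodes N-cadherin, which hepatocytes express beside E-cadherin and which mesenchymal cells express in its place. Its probe sets had differences of 0.24 and 0.12, and the brighter read 8.97 in CD133+ and 8.73 in CD133- cells. CDH2 was therefore not lower where CDH1 was higher. With 1 array each, the gap between CDH1 and CDH2 was not tested.

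Of the 9 genes, the catenin genes CTNNB1 and CTNNA1 differed least. CTNNB1 encodes beta-catenin, which binds the cadherin tail and is also the transducer of Wnt signalling. Its brightest probe set had RMA values of 11.88 in CD133+ and 11.80 in CD133- cells. Its other probe sets differed by 0.11 and -0.12, so they disagree in direction. The probe set at -0.12 had MAS5 signals of 600 in CD133+ and 485 in CD133- cells, which is the opposite direction. CTNNA1 encodes alpha-E-catenin, the link to actin. Differences over its 4 bright probe sets ran from -0.06 to 0.09, and the brightest had 10.23 in CD133+ and 10.24 in CD133- cells. The sign of this CTNNA1 difference changed with MAS5 (0.019) and with centring on the median of all genes above the floor (0.00093). The remaining CTNNA1 probe set lay below the floor on both arrays, with 4.12 in CD133+ and 4.52 in CD133- cells.

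The desmosomal cadherins DSG2 and DSC2, the desmoglein and desmocollin of simple epithelia, were both higher, and which of them differed more depended on the algorithm and probe sets. DSG2 had RMA values of 9.03 in CD133+ and 8.78 in CD133- cells on its brighter probe set (difference 0.25). Its other probe set differed by 0.31. By MAS5 these probe sets differed by 0.35 and 0.092, so the order of the pair turned. The mean over both by RMA was 0.28. DSC2 had RMA values of 7.16 in CD133+ and 6.90 in CD133- cells on its brightest probe set (difference 0.27, and 0.22 by MAS5). Its second probe set differed by 0.20 by RMA, with MAS5 signals of 318 in CD133+ and 175 in CD133- cells. The remaining DSC2 probe sets lay below the floor and differed by 0.09 and -0.16, and the mean over all DSC2 probe sets was 0.10.

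The desmosomal plaque genes differed in size. PKP2 encodes plakophilin 2, an armadillo protein that joins desmoplakin to the desmosomal cadherins. On its brighter probe set it had RMA values of 7.22 in CD133+ and 6.88 in CD133- cells, a difference of 0.35. The MAS5 signals were 1090.4 in CD133+ and 702 in CD133- cells, a 1.55-fold difference. Its other probe set read 5.35 in CD133+ cells and 4.85 in CD133- cells, just below the floor, which gives at least 1.41-fold higher. Both PKP2 probe sets therefore point the same way, and MAS5 gives the larger value on each. DSP encodes desmoplakin, which anchors keratin filaments. Its only probe set had 10.71 in CD133+ and 10.57 in CD133- cells, a difference of 0.14 that is less than the SD between probe sets. The 4 genes found in desmosomes alone had a median difference of 0.26 and the 4 measured genes of adherens junctions alone one of 0.16. These groups of 4 were not tested against each other.

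**Figure D2:**
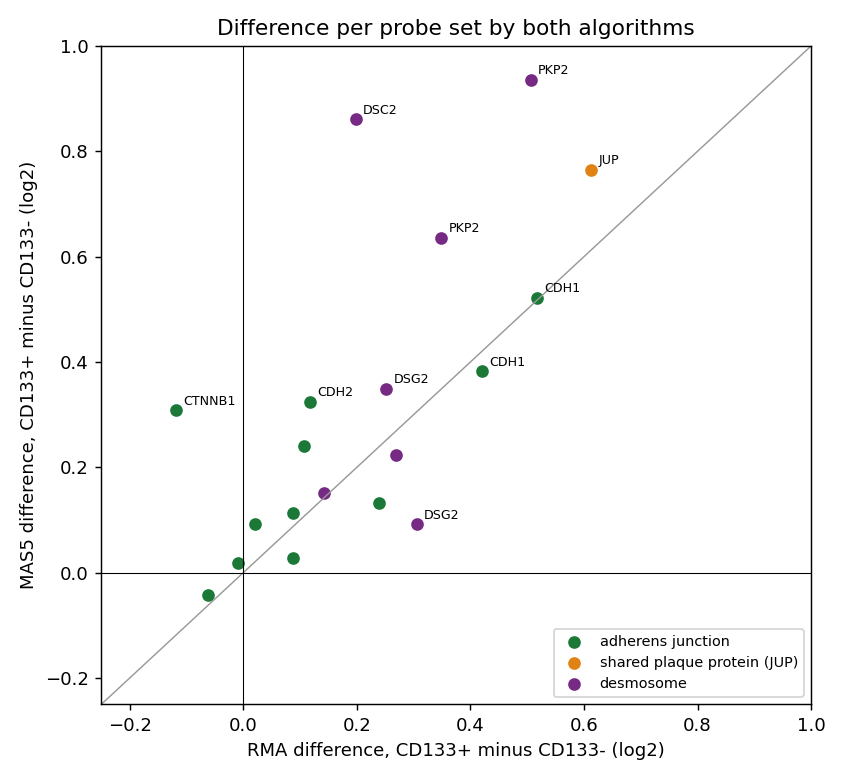
Difference CD133+ minus CD133- (log2) of the 19 junction probe sets above the floor by RMA (horizontal) and by MAS5 (vertical), 1 point per probe set, with the line of equality in grey. By RMA 16 probe sets were higher in CD133+ cells and 3 lower, and 17 of the 19 had the same direction by both algorithms.

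Counted by probe set, 16 of the 19 above the floor were higher in CD133+ cells and 3 were lower, where 44.8% of all single-gene probe sets above the floor were higher and 51.8% lower. The 3 lower ones belonged to CTNNA1 and CTNNB1. By MAS5 18 of these 19 were higher, where 49.5% of the same single-gene probe sets were. By MAS5 on genes, all 9 were higher, where 50.5% of genes above the MAS5 floor of 91.8 were, and 2 of them (JUP and PKP2) were at least 1.5-fold higher, where 9.92% were. None was 1.5-fold lower by MAS5, where 5.44% of genes were. Probe sets of 1 gene share their RNA and array, so these counts are not independent readings.

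**Figure D3:**
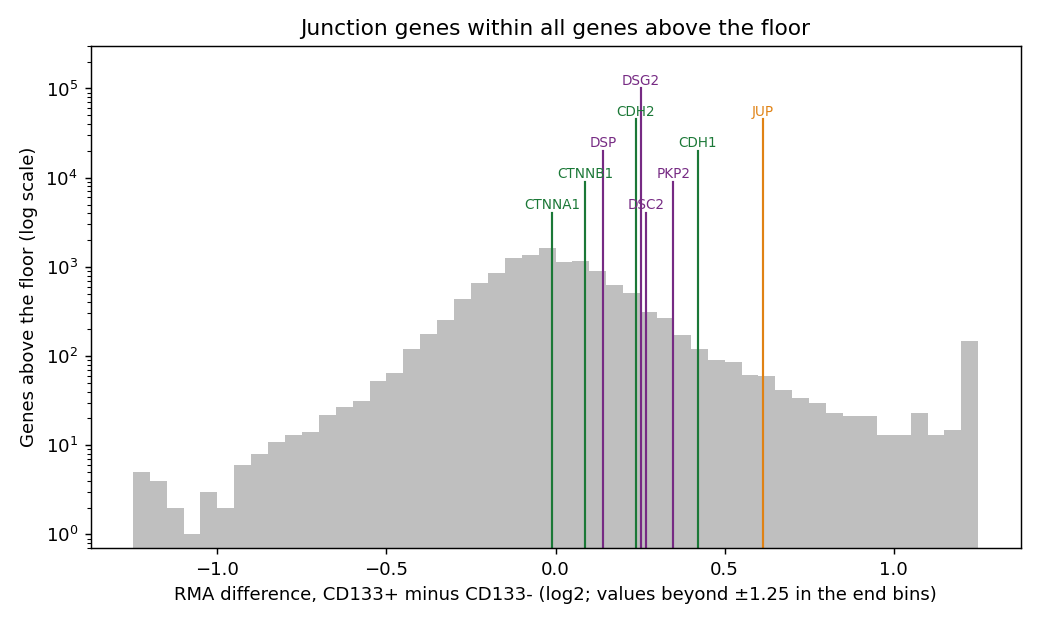
Histogram of the RMA difference CD133+ minus CD133- (log2) over the 12899 genes above the floor, on a log count axis, with a vertical line for each of the 9 junction genes; line height has no meaning. The genes lie between -0.009 (CTNNA1) and 0.61 (JUP). All 9 are right of the median of all genes above the floor (-0.00993), CTNNA1 only barely.

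Related genes of the same junctions did not share one direction. Among 17 other cadherin genes with a probe set, 7 lay above the floor, of which 4 were higher and 2 lower, with a median of 0.02 by RMA. Only 4 of these 7 also lay above the MAS5 floor, with a median of -0.02 by MAS5. CDH17, the liver-intestine cadherin, which lacks the catenin-binding tail of classical cadherins, was the exception in size. It had 10.57 in CD133+ and 8.36 in CD133- cells, a 4.63-fold difference on its only probe set. CDH3, the P-cadherin gene next to CDH1 on chromosome 16, read 5.29 on both arrays by RMA. Its MAS5 signals of 9.0 in CD133+ and 26.5 in CD133- cells lay below the MAS5 floor. Among 10 other desmosome genes, 4 lay above the floor, 3 higher and 1 lower, with a median of 0.17 by RMA and 0.02 by MAS5. PPL, the gene of periplakin, a plakin of the desmosome and cornified envelope, had 6.59 in CD133+ and 5.83 in CD133- cells, a 1.69-fold difference that was 1.40-fold by MAS5. PERP, a tetraspan protein of desmosomes, differed by -0.01. Of 4 other catenin family genes above the floor, 2 were higher and 2 lower, with a median of 0.02 by RMA and 0.34 by MAS5. By RMA they ran from CTNNAL1 at -0.26 to CTNND2, a neural relative of p120-catenin, at 0.38. The other CTNND2 probe set above the floor differed by 0.71. It read 5.15 in CD133+ and 4.45 in CD133- cells, the lower value below the floor. By MAS5 ARVCF was 2.73-fold and CTNND2 1.81-fold higher, and 2 genes were lower. The ARVCF signals were 100.6 in CD133+ and 36.9 in CD133- cells, the lower one below the MAS5 floor. By RMA the same ARVCF probe set differed by only 0.21, so its size depends on the algorithm. The other ARVCF probe sets differed by 0.21 and -1.24 by MAS5, with signals below the MAS5 floor in both populations.

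Actin linkers held 2 genes of larger difference. AJUBA, a LIM protein that binds alpha-catenin, had 9.79 in CD133+ and 9.06 in CD133- cells, and the differences of its 3 bright probe sets were 0.72, 0.74 and 0.73. LIMA1, the actin-bundling protein EPLIN that binds alpha-catenin, had 9.33 in CD133+ and 8.69 in CD133- cells, and its other probe set above the floor differed by 0.52. In this group of 10 genes above the floor 7 were higher and 2 lower, with a median of 0.05 by RMA and 0.15 by MAS5. By RMA 2 of the 10 were at least 1.5-fold higher, where 3.67% of all genes above the floor were. The nectin genes NECTIN1, NECTIN2 and NECTIN3 differed by -0.03, 0.08 and -0.12. Of 4 keratin genes whose filaments attach to desmosomes, all 4 were higher, where 45.6% of all genes above the floor were. KRT7 differed only by 0.08, which is less than the SD between probe sets. KRT19 had 10.54 in CD133+ and 8.52 in CD133- cells, and KRT8 and KRT18, the keratin pair of hepatocytes, differed by 0.32 and 0.24.

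Of the transcriptional repressors that act on CDH1, 3 of 6 lay above the floor. ZEB1 had RMA values of 6.40 in CD133+ and 7.02 in CD133- cells, a difference of -0.62, and its other probe set above the floor differed by -0.24. SNAI1 and TCF3 differed by 0.07 and 0.03 by RMA, TCF3 on its brightest probe set. Over all TCF3 probe sets above the floor the RMA differences ran from -0.35 to 0.23, so they disagree in direction. The TCF3 probe set at -0.35 read 7.90 in CD133+ and 8.25 in CD133- cells. SNAI2, TWIST1 and ZEB2 lay below the floor. By MAS5 ZEB1 differed by -0.55 and TCF3 by -0.003. SNAI1 differed by 1.11 by MAS5, with signals of 163 in CD133+ and 75.7 in CD133- cells, so its size depends on the algorithm. The lower of these signals lay below the MAS5 floor of 91.8. ZEB1 was thus lower in the population in which CDH1 was higher, and a link between them was not tested. Of the 8 genes around beta-catenin turnover, 3 were higher and 5 lower, with a median of -0.08 by RMA and 0.13 by MAS5, so the direction of this group depends on the algorithm. Its extremes by RMA were APC, the scaffold of the destruction complex, at -0.27 and CTNNBIP1, an inhibitor of beta-catenin, at 0.17. Among 13 cadherin phosphatases, proteases and trafficking genes, 8 were higher and 5 lower, with a median of 0.04 by RMA and -0.01 by MAS5. Its extremes were EGFR, the growth factor receptor found in complex with E-cadherin, at 0.57 and CBLL1, the E-cadherin ubiquitin ligase Hakai, at -0.24.

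**Figure D4:**
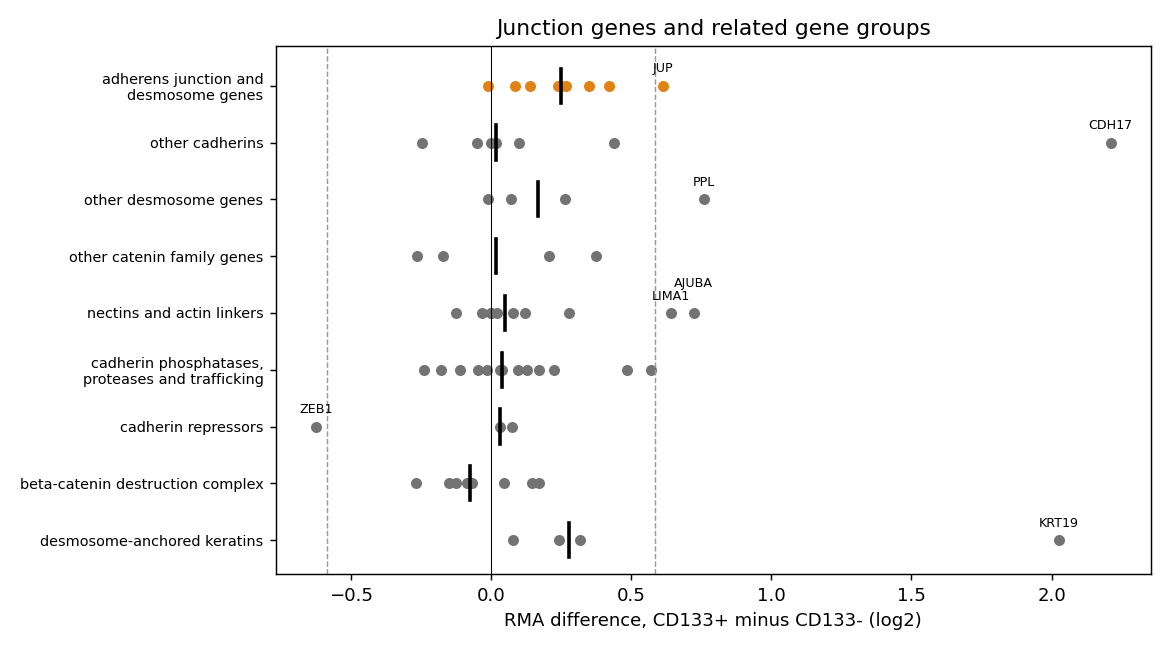
RMA difference CD133+ minus CD133- (log2) of the 9 junction genes (orange) and of the genes above the floor in 8 related groups (grey), 1 point per gene, with the group median as a black bar and 1.5-fold as dashed lines. CDH17 (2.21) and KRT19 (2.03) lie far from the other genes, and ZEB1 (-0.62) is the only gene beyond the lower line.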

How the data were processed

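RNA of sorted CD133+ and CD133- Huh7 cells was hybridised to what was taken, from the labels, as 1 array per population. The authors deposited RMA values on the log2 scale and MAS5 signal intensity on a linear scale, per the labels. The submitters' processing notes list MAS5 and GCOS with no version, and the software behind RMA is not given in the sources used here. The MAS5 arrays share a 2% trimmed mean of 500.1, so a global shift between populations cannot be seen.

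The platform annotation gives exactly 1 symbol to 41097 of 54675 probe sets, and symbols were updated through the Entrez number. The probe set with the highest RMA value, averaged over the arrays, stood for its gene. Differences are CD133+ minus CD133- in log2, computed with Python 3.11.15, numpy 2.4.6 and pandas 2.3.3 and tested on simulated data. Related genes were named at 1.5-fold or more, or else as the extremes of their group. Further genes (CDH3, PERP, ARVCF, the nectins, KRT7, KRT8, KRT18, SNAI1, TCF3, TTR, DSG3 and genes below the floor) were added for their role or to complete their group after their values were seen. Members, groups and thresholds were chosen with earlier results of these data known. Alternatives were MAS5, the mean over probe sets, leaving out shared probe sets, no floor, a stricter floor and centring. The number of arrays limits the precision.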

Additional observations from a re-analysis of the deposited data

How the results depend on the processing

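The median difference of the junction genes stayed positive in all 6 alternatives, between 0.18 (mean over probe sets) and 0.26 (centred). Not all of these could have changed it. No floor and the stricter floor kept the same 9 genes and values, and centring shifted each by 0.01. The same limit holds for the counts that follow. The number of junction genes at least 1.5-fold higher was 1 by RMA, 2 with MAS5 and 0 without shared probe sets. Leaving out shared probe sets removes JUP, CDH1, PKP2 and CTNNA1 from the genes above the floor, so 5 genes remain there. The number at least 1.5-fold lower was 0 in every alternative. Among differences of single genes, 46 of the values under alternatives moved by less than the SD between probe sets and kept their sign. Of the other values, 2 moved by more and 2 changed sign. Many of the 46 were fixed in advance and are no sign of stability. With no floor, the stricter floor or shared probe sets left out, each gene still counted kept its brightest probe set and so its value. Centring moved every gene by the same 0.01. CTNNA1 changed sign with MAS5 (0.019) and with centring (0.00093). PKP2 was 0.64 with MAS5, against 0.35 by RMA, and DSC2 was 0.10 with the mean over probe sets, against 0.27. The cause was not tested, except that the DSC2 mean includes probe sets below the floor. No paired analysis was possible because each population has 1 column per algorithm. With 1 array each, no difference here can be set against biological variation.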

Other observations

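The desmosomal cadherin genes lie in one run on chromosome 18, which CDH2 precedes and the liver gene TTR follows. Of the 9 coding genes from CDH2 to TTR, 5 lay above the floor. Their RMA differences were 0.24 for CDH2, 0.27 for DSC2, 0.26 for DSG3, 0.25 for DSG2 and 0.55 for TTR, the gene of the plasma carrier transthyretin (log2). Of all genes above the floor, 45.6% had a positive difference. DSG3, a desmoglein of stratified epithelia, was dim, with RMA values of 5.16 in CD133+ and 4.90 in CD133- cells, and by MAS5 its difference was -0.19. DSC1, DSC3, DSG1 and DSG4, known mainly from skin and other stratified epithelia, lay below the floor on both arrays. CDH2, DSC2 and DSG2 are the junction genes already described. The run was looked at after these values were seen, and whether its genes vary together was not tested.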
